A study of Mus musculus with 4 samples.

Results

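Mature neutrophils were followed here in single-cell RNA sequencing of CD45+ immune cells sorted from the ventricles of neonatal C57BL/6 mouse hearts. The design crossed PD1 knockout (KO) or PD1 heterozygous (Het) mice with myocardial infarction (MI) or sham surgery on postnatal day 2, and hearts were taken 7 days later. Each of the 4 groups, KO MI, Het MI, KO sham and Het sham, is 1 library, so the differences below have no replicate check and no test was possible. All 4 groups carry at least 1 altered Pdcd1 allele, no wild-type heart is analysed here, and the number of hearts behind a library is not given in the sources used here. A cell was taken as a mature neutrophil when at least 100 of every 10000 of its unique molecular identifiers (UMIs, 1 per captured RNA molecule) were S100a8 or S100a9, it held at least 4 UMIs of Retnlg, Cxcr2, Il1r2 and Csf3r together, and the granule precursor RNAs Camp, Ltf and Ngp stayed under 20 per 10000. Cells with C1qa, C1qb and C1qc at 10 or more per 10000 UMIs, or with more than 1 UMI of T or B cell receptor-complex genes, were left out. Members were thus chosen by their measured levels of these genes, and those levels are a description. The rule found 782 of 23961 cells that had at least 500 UMIs, at least 200 genes and at most 10% mitochondrial UMIs: 190 of 7104 in KO MI, 165 of 5074 in Het MI, 223 of 6407 in KO sham and 204 of 5376 in Het sham.

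Neutrophils are made in the bone marrow, where they fill granules with antimicrobial proteins in successive waves, and leave as short-lived mature cells that sense chemokines, bacterial peptides and growth factors through surface receptors. In an injured heart they arrive early, release cytokines, chemokines and prostaglandins, and shift their programme with time in the tissue. PD1, the product of Pdcd1, is an inhibitory receptor known mainly from T cells, and its ligands PD-L1 (Cd274) and PD-L2 (Pdcd1lg2) can be carried by myeloid cells.

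The neutrophils were shallow cells. Their median depth was 2012 UMIs in KO MI, 2423 in Het MI, 2278 in KO sham and 2430 in Het sham, against 7470, 8632, 7452 and 6560 UMIs over all retained cells of the same libraries. Their summed UMIs, on which gene levels rest, were 562542 in KO MI, 521649 in Het MI, 683878 in KO sham and 641960 in Het sham. Gene levels are UMIs per 1000000 of these sums (CPM), and every interval given is a 95% interval for counting error only. Between 7 and 16 cell barcodes were shared by any pair of libraries, and 0 of them belonged to neutrophils. Pdcd1 was counted in all retained cells at 6.25 CPM in KO MI, 2.17 CPM in Het MI, 1.16 CPM in KO sham and 1.28 CPM in Het sham. The sequenced tags come from the 3′ end and the altered part of the gene is not given in the sources used here, so this does not check the genotype labels. Y-linked genes gave 0 UMIs in the KO MI neutrophils, against 125 in Het MI, 134 in KO sham and 85 in Het sham, and Xist stood at 304 CPM in KO MI, against 99.7, 127 and 129 CPM in those libraries. Whether the make-up of the KO MI library by sex moved any result below was not tested.

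Markers that the rule did not use told these cells from B cells. That comparison cannot tell mature neutrophils from those still forming granules. B cells had at least 4 UMIs of Cd79a and Cd79b together and no UMI of Cd3d, Cd3e or Cd3g. They also had S100a8 and S100a9 under 20, and C1qa, C1qb and C1qc under 10, per 10000 UMIs. Cells with much calprotectin RNA were thus left out of the B cells, which can lower their shares for neutrophil genes. Slpi, a secreted inhibitor of neutrophil serine proteases, had a UMI in 93.2% of the cells in KO MI, 99.4% in Het MI, 95.1% in KO sham and 95.6% in Het sham, against at most 1.81% of the B cells of the same libraries. Asprv1, an aspartic protease, was found in 82.1%, 86.7%, 86.1% and 88.7% of the cells in the same order of libraries, against at most 0.816% of B cells. Of 10 markers of granule-forming neutrophils, 7 were detected in KO MI, 6 in Het MI, 5 in KO sham and 3 in Het sham. They summed to 126, 48, 45 and 32 UMIs in the same order. Camp, Ltf and Ngp are among the 10 and were capped by the rule, so these low sums are in part set by the rule. Of the 10 only neutrophil elastase (Elane) and Ms4a3, which mark precursors, had 0 UMIs in every library. Of 4 eosinophil markers 1, 2, 2 and 1 were detected, with 3, 8, 5 and 3 UMIs. The eosinophil granule genes Prg2 and Epx had 0 UMIs. Ly6g, the surface antigen used to sort mouse neutrophils, was sparse, with a UMI in 10.5% of the cells in KO MI, 6.06% in Het MI, 8.07% in KO sham and 5.88% in Het sham, and in 0 B cells.

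Calprotectin RNA dominated these cells, as the rule requires. S100a9 reached 57299 CPM in KO MI, 61390 in Het MI, 57617 in KO sham and 50101 in Het sham, and S100a8 reached 43048, 41980, 36435 and 29890 CPM in the same libraries. The nuclear RNA Malat1 and the actin-binding gene Tmsb4x followed, and then the stefins, small cytosolic inhibitors of cysteine proteases. Stfa1 stood at 22941 CPM in KO MI, 22297 in Het MI, 20444 in KO sham and 18708 in Het sham. Cstdc5, Cstdc4, Stfa2l1 and Stfa2 followed it among the abundant genes, with Cstdc5 at 16527, 16891, 15425 and 13091 CPM. The stefin genes lie together on chromosome 16 and are close copies: over the last 150 transcript bases, the part that 3′ tags read, Cstdc5 and Stfa1 share 98.0% of their letters, and 28 pairs of the family range between 47.6% and 98.0% with a median of 70.9%. Counts of single stefins are therefore uncertain between copies, and the family is best read as a whole.

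Promoters of 12 genes, S100a8, S100a9, Retnlg, Ptgs2 and members of the stefin family, were searched for TTGCNNAA. It is a short form of the motif bound by C/EBP factors, which drive granulocyte genes. Both strands of the 250 bases before the gene start in RefSeq were searched. The motif lay in 6 of the 12, those of S100a9, Retnlg, Stfa1, Cstdc5, Csta3 and Ptgs2, and in 3142 of 32851 mouse promoters of that length (9.56%). The stefin promoters share between 46.8% and 89.4% of their letters, so the 12 are not independent of each other. A match describes letters and is not a measured binding site. Sequences are shown for 4 genes whose RNA is described here, from RefSeq on build GRCm38.p6, 5′ to 3′ in the direction of the gene, with the motif in capitals: S100a9 (chr3:90695722-90695971, minus strand), Stfa1 (chr16:36276898-36277147, plus strand), Cstdc5 (chr16:36367571-36367820, minus strand) and Ptgs2 (chr1:150099781-150100030, plus strand).
S100a9: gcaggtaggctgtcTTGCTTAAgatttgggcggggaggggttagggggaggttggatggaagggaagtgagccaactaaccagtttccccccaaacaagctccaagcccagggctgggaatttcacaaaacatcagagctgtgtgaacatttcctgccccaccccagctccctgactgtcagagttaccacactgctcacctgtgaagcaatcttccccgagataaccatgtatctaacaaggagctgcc
Stfa1: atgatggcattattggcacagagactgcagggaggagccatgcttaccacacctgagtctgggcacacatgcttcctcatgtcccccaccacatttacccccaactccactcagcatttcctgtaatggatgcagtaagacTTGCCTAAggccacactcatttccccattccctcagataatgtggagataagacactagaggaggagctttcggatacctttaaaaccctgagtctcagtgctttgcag
Cstdc5: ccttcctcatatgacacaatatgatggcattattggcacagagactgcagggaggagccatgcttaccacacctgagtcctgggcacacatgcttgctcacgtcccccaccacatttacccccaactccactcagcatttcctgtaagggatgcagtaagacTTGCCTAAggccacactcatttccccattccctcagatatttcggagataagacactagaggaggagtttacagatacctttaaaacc
Ptgs2: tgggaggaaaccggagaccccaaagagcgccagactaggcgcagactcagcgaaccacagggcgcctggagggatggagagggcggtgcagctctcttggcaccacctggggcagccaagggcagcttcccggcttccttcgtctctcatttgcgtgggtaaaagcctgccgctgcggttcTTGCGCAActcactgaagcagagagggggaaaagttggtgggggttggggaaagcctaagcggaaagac
The motif begins 236 bases before the RefSeq start of S100a9, 109 before that of Stfa1, 88 before Cstdc5 and 69 before Ptgs2. The GENCODE annotation starts Stfa1 at chr16:36276951 and Cstdc5 at chr16:36367748, inside the stretches shown. By that annotation the motifs of these genes lie after the start. Stfa1 and Cstdc5 carry the motif as the same 8 letters, TTGCCTAA, inside stretches that are copies of each other.

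The nearest cells in the same hearts were 175 neutrophils still forming granules, which passed the same calprotectin limit with Camp, Ltf and Ngp at 20 or more per 10000, and 1093 classical monocytes. The monocytes had at least 4 UMIs of Ly6c2 and Ccr2 together and S100a8 and S100a9 under 100 per 10000. Both groups kept the C1q and receptor-complex limits of the rule. These comparisons are descriptions, since the genes chose the cells, Ly6c2 and Ccr2 among them. Relative to the granule-forming neutrophils, averaged over the 4 libraries, mature neutrophils were higher in Fgl2 by 4.24 on the log2 scale, in Ifitm1 by 4.00, and also in the prostaglandin synthase gene Ptgs2, the itaconate-producing enzyme gene Acod1, the niacin receptor gene Hcar2 and the chemokine gene Cxcl2. They were lower in the lectin gene Chil3 (log2 -7.30) and the lipocalin gene Lcn2 (log2 -4.95), both late granule-forming genes, and in Cd177, Serpinb1a and Lta4h. They were also lower in Ly6g (log2 -3.14). It had 56.9 CPM in KO MI, 32.6 in Het MI, 45.3 in KO sham and 34.3 in Het sham. The granule-forming neutrophils had 338, 506, 425 and 365 CPM of Ly6g. Relative to classical monocytes the mature neutrophils were highest in the stefins, led by Cstdc5 (log2 9.96), and in Csta3, Asprv1 and the gelatinase gene Mmp9, and lower in Ccr2, Ly6c2, Fn1 and S100a4.

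A minority of the neutrophils also held RNA of other cell types. At least 3 UMIs of 8 macrophage markers (Csf1r, Mrc1, Apoe, Pf4, Fcgr1, Adgre1, Ms4a7 and Mertk) were found in 32.1% of them in KO MI, 29.7% in Het MI, 23.8% in KO sham and 25.5% in Het sham, against 29.0%, 27.3%, 22.6% and 18.8% of B cells, whose median depth was 3432, 4297, 3905 and 3973 UMIs. Summed macrophage markers reached 1979 CPM in KO MI, 1204 in Het MI, 1676 in KO sham and 1053 in Het sham, with 7 of 8 detected in 3 libraries and 8 of 8 in Het sham. Summed monocyte markers (Ly6c2, Ccr2, F13a1, Fn1 and Ms4a6c, all detected in every library) reached 883 CPM in KO MI, against 305, 345 and 326 CPM in Het MI, KO sham and Het sham. KO MI was thus the library with the most of both. Cells above 6000 UMIs numbered 21 in KO MI, 14 in Het MI, 18 in KO sham and 18 in Het sham, held 38.2%, 26.4%, 29.4% and 24.7% of the summed UMIs, and all but 2 in Het MI carried 3 or more such marker UMIs. Fibroblast markers summed to 1075 CPM in Het MI and to at most 23.4 CPM in the other libraries, and red cell markers to 2383 CPM in KO sham and at most 53.3 CPM in the others, while in low-marker members neither exceeded 80.3 CPM. T and NK cell markers had a UMI in 14 cells of KO MI, 6 of Het MI, 4 of KO sham and 52 of Het sham, of which 42 were low-marker members. Mast cell and basophil markers summed to 121 CPM in Het MI and at most 7.11 CPM in the others. The part of these RNAs in the results was not tested.

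Many results are therefore also given for the 553 low-marker members, those with fewer than 3 UMIs of the macrophage markers and fewer than 3 of the monocyte markers: 125 in KO MI, 113 in Het MI, 165 in KO sham and 150 in Het sham. In these cells macrophage markers summed to 490, 351, 388 and 339 CPM and monocyte markers to 106, 110, 63.7 and 41.7 CPM. This subset was chosen after the data were seen. The part of macrophage and monocyte RNA in the results over all members was not tested beyond this comparison.

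**Figure D1:**
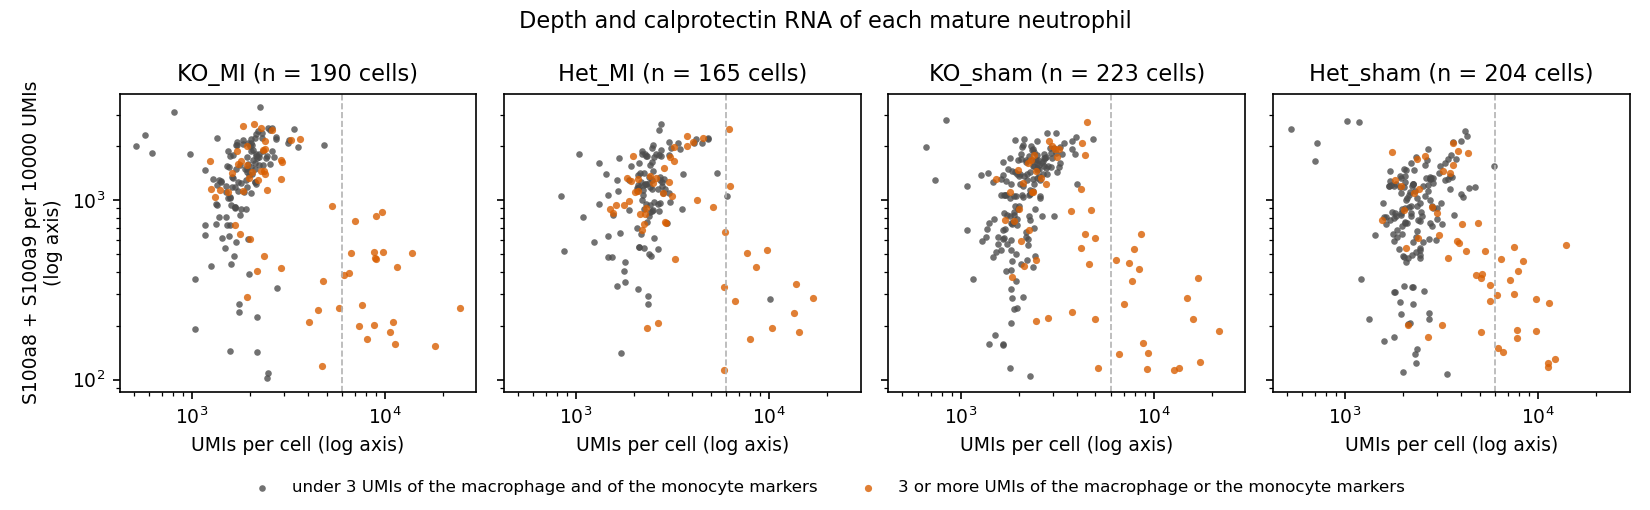
Each point is 1 mature neutrophil, with its UMIs on a log x axis and S100a8 plus S100a9 per 10000 UMIs on a log y axis, in the 4 libraries; orange points carry 3 or more UMIs of the macrophage or of the monocyte markers and the dashed line marks 6000 UMIs. The deepest cells are nearly all orange and sit at the lower end of the calprotectin range, while the medians lie between 2012 and 2430 UMIs.

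Mature neutrophils made up 2.67% (2.31 to 3.08) of retained cells in KO MI, 3.25% (2.78 to 3.78) in Het MI, 3.48% (3.05 to 3.96) in KO sham and 3.79% (3.30 to 4.34) in Het sham, with exact Clopper-Pearson intervals. The KO MI share was the lowest and the Het sham share the highest, but with at least 8 UMIs of the maturity genes required Het MI had 2.52% and Het sham 2.51%, and after thinning to 1000 UMIs Het MI had 2.17% and KO sham 2.12%. KO MI over KO sham gave a ratio of 0.768 (0.630 to 0.937), whose counting interval lay below 1. The ratios KO MI over Het MI, 0.822 (0.664 to 1.02), Het MI over Het sham, 0.857 (0.694 to 1.06), and KO sham over Het sham, 0.917 (0.755 to 1.11), had intervals that reached 1. Low-marker members kept the order, at 1.76% in KO MI, 2.23% in Het MI, 2.58% in KO sham and 2.79% in Het sham. At the edge of the rule, 5, 2, 9 and 10 members had 100 to 150 calprotectin UMIs per 10000, and 9, 4, 11 and 11 cells were left out at 50 to 100. With exactly 4 UMIs of the 4 maturity genes, 16, 7, 9 and 21 cells were kept, and 8, 6, 19 and 15 were left out with 3.

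**Figure D2:**
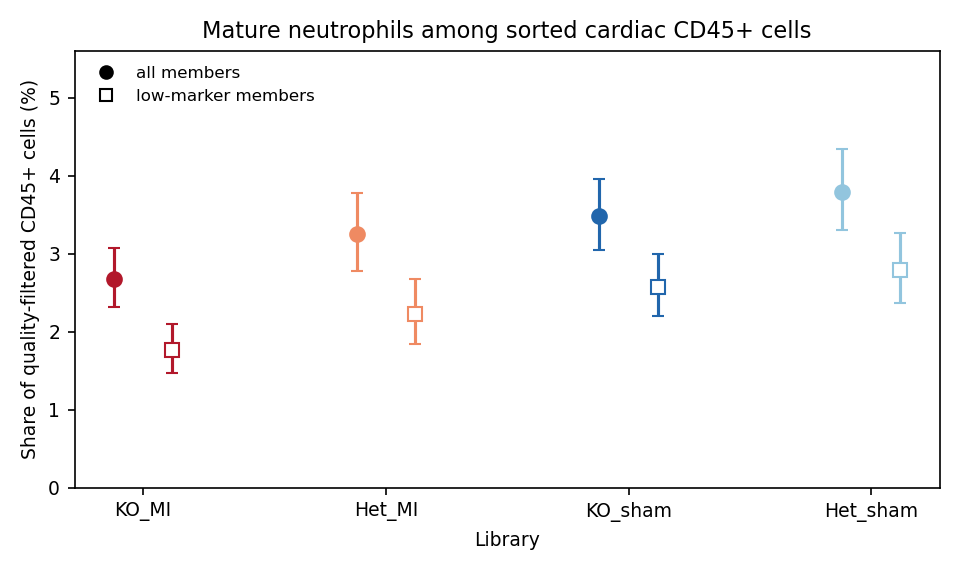
The share of mature neutrophils among retained CD45+ cells (y axis, percent) in each library (x axis), with exact 95% binomial intervals, for all members (filled) and for low-marker members (open). The 4 shares run between 2.67% in KO MI and 3.79% in Het sham, and neighbouring intervals overlap.

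The cells varied widely among themselves in calprotectin and stefin RNA, and the 2 went together. After each cell was thinned to 1000 UMIs, which kept 185 cells in KO MI, 163 in Het MI, 220 in KO sham and 201 in Het sham, the cell-to-cell correlation of S100a9 with S100a8 was 0.90, 0.87, 0.86 and 0.83, and with Cstdc5 0.76, 0.75, 0.81 and 0.67. S100a9 with Retnlg, which encodes a resistin-like protein, gave 0.62, 0.64, 0.57 and 0.60, while Retnlg with the nuclear RNA Malat1 gave -0.31, -0.40, -0.32 and -0.37. These values describe cells of 1 library at equal UMI number, where a rise in abundant RNAs lowers the rest. Chemokine RNA was also uneven between cells. The ratio of variance to mean for Cxcl2 was 9.40 in KO MI, 12.7 in Het MI, 12.2 in KO sham and 17.9 in Het sham. For S100a9, a gene of the rule, it was 24.9, 20.7, 24.1 and 23.8. Mean UMIs per thinned cell were 4.23, 3.94, 3.10 and 5.18 for Cxcl2 and 72.4, 67.3, 65.3 and 56.3 for S100a9. With means so unlike, these ratios do not rank the 2 genes by unevenness.

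Neutrophils of KO MI hearts, set against those of Het MI hearts, held more RNA of Ifi27l2a and H2-K1 and less of Il1rn, Ptgs2, Jun, Egr1 and G0s2. A gene is counted here as higher or lower when it passed 1.5-fold and had at least 30 UMIs over both libraries; by that rule 11% of 3570 genes were higher and 11.2% lower (4.4% and 15.5% of 1953 genes in low-marker members), with a median log2 ratio of -0.05. Ifi27l2a, an interferon-induced mitochondrial protein gene, reached 722 CPM in KO MI, against 167 in Het MI, 231 in KO sham and 268 in Het sham, a log2 ratio of 2.11 (1.78 to 2.46) for KO MI over Het MI. In low-marker members it stood at 363, 95.7, 141 and 150 CPM, a log2 ratio of 1.93. KO MI was the high library, and the other 3 lay between 167 and 268 CPM.

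Ifi27l2a was also highest in KO MI outside the neutrophils. Classical monocytes had 1788 CPM in KO MI, 968 in Het MI, 828 in KO sham and 909 in Het sham, and all cells other than mature neutrophils had 941, 576, 590 and 563 CPM. A UMI of Ifi27l2a was present in 33.7% of mature neutrophils in KO MI, 15.8% in Het MI, 23.3% in KO sham and 21.6% in Het sham, below the 56.0%, 47.1%, 41.6% and 41.4% of B cells. The part of free RNA in its neutrophil level was not tested.

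H2-K1, a class I heavy chain gene, was also highest in KO MI, at 1200 CPM in KO MI, 661 in Het MI, 534 in KO sham and 548 in Het sham. KO MI over Het MI gave a log2 ratio of 0.86 (0.67 to 1.05), and 0.52 in low-marker members, at 824 against 574 CPM. All other cells stood at 1321, 839, 786 and 721 CPM, again with KO MI on top. Of 10 measured class I genes 3 were higher (H2-K1, the peptide transporter Tap1 and the immunoproteasome subunit Psmb8) and 1 lower (Tap2), with a list median of 0.36. In low-marker members 0 of 7 were higher and 1 was lower (Psmb9), with a median of 0.15. B2m, the invariant light chain, gave 0.40 over all members and 0.15 in low-marker members. Of 17 measured type I interferon-induced genes 4 were higher (Ifitm3, Oasl2, Zbp1 and Ifi27l2a) and 2 lower (Ifitm1 and Trim30d), with a median of -0.06, and of 13 in low-marker members 2 were higher (Ifitm3 and Ifi27l2a) and 1 lower (Irf7), with a median of -0.14. Of 10 interferon-gamma response genes 5 were higher and 1 lower, with a median of 0.61, and of 4 in low-marker members 1 was higher and 1 lower, with a median of 0.02.

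For several other leading genes most UMIs lay in cells with macrophage or monocyte markers. Plac8 reached 1463 CPM in KO MI and 429 in Het MI (log2 1.77), but low-marker members held 10 and 17 of its UMIs. Ctsc, a lysosomal activator of serine proteases, gave 1.70 with 7 and 9 UMIs left, and Ctss 1.54 with 5 and 7. Lyz2, lysozyme, stood at 8095 CPM in KO MI and 4007 in Het MI over all members, and at 2856 and 2880 CPM in low-marker members. Monocyte markers among the leading genes, Ly6c2 (log2 1.88) and Ms4a6c (log2 1.91), are genes by which low-marker members were chosen. Psme2, a proteasome activator subunit, gave 1.54, with 14 and 8 UMIs in low-marker members of KO MI and Het MI. Pycard, the inflammasome adaptor, gave 1.44, with 17 and 12 UMIs there. Chil3 was present in KO MI almost only in 1 cell, which held 93.9% of its UMIs there.

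On the lower side, Il1rn, the interleukin-1 receptor antagonist, stood at 254 CPM in KO MI, 550 in Het MI, 181 in KO sham and 207 in Het sham, a log2 ratio of -1.11 (-1.41 to -0.82) for KO MI over Het MI and of -0.68 in low-marker members. Here Het MI was the high library. Ptgs2, the inducible prostaglandin synthase, stood at 215 CPM in KO MI and 378 in Het MI, with a log2 ratio of -0.81 (-1.15 to -0.48) and of -0.49 in low-marker members. Of 16 measured cytokine and chemokine genes, 6 were lower (Il1a, Il1rn, Osm, Ccl3, Ccl4 and Ptgs2) and 0 higher, with a list median of -0.33. In low-marker members 3 of 15 were lower (Il1rn, Ccl3 and Nfkbie) and the median was -0.07. Il1b and Cxcl2, the most abundant of the list, were near equal, at 3186 and 3322 CPM in KO MI and 3721 and 3468 CPM in Het MI.

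G0s2, an inhibitor of fat breakdown, had 748 CPM in KO MI, 1411 in Het MI, 1366 in KO sham and 2031 in Het sham, a log2 ratio of -0.91 for KO MI over Het MI (-0.66 in low-marker members). The long non-coding RNA Mirt2 had 164, 343, 234 and 182 CPM (log2 -1.07, and -1.06 in low-marker members). The membrane protein gene Myadm gave -1.25 and -0.77, the nucleoporin gene Nup98 -1.10 and -1.12, and Gcnt2 -1.05 and -0.33. Surface receptors were mostly a little lower, with a list median of -0.30 over 24 genes, 1 of them higher (Ly6g) and 0 lower past the fold, and in low-marker members 2 of 24 were higher (Fcgr4 and Ly6g) and 1 lower (Fpr1), with a median of -0.20. Csf3r, the G-CSF receptor, had 741 CPM in KO MI and 1041 in Het MI. Adhesion and trafficking genes had a median of -0.32 over 14 genes with 0 past the fold in either direction, among them the chemokine receptor gene Cxcr2 at 425 CPM in KO MI and 573 in Het MI.

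**Figure D3:**
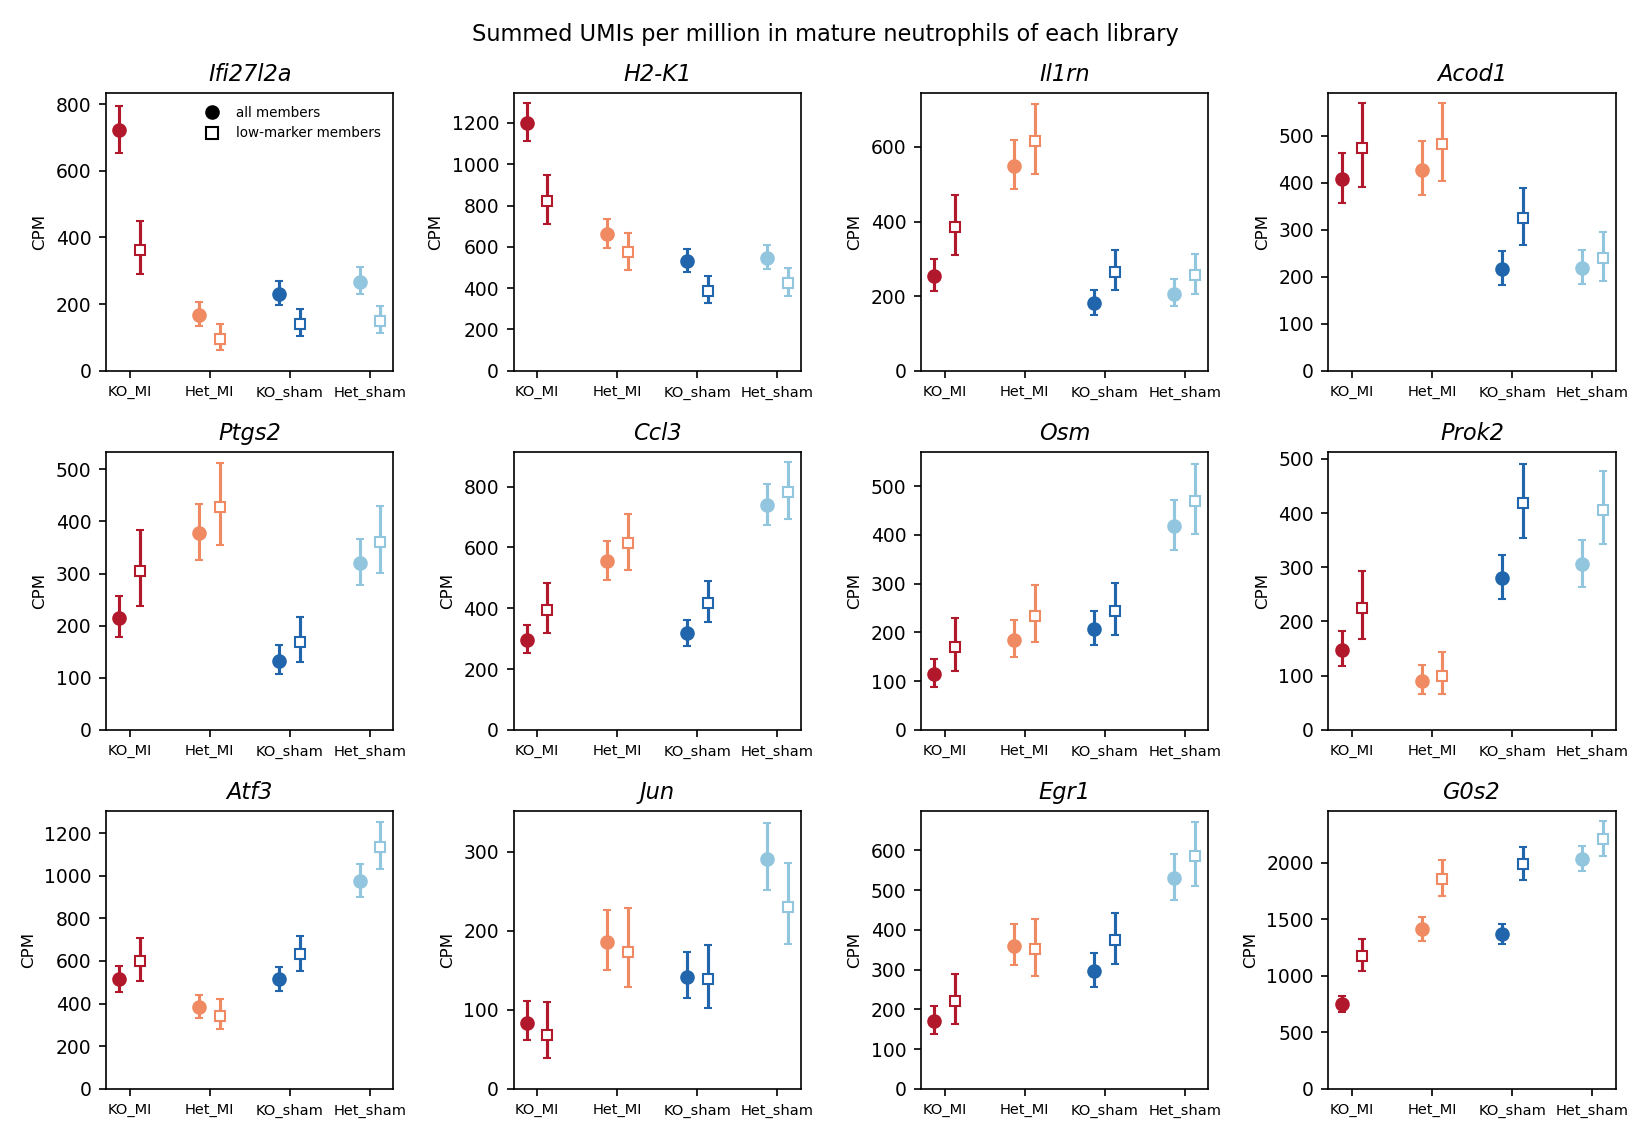
CPM of summed UMIs for 12 genes in the 4 libraries, with 95% Poisson counting intervals, over all members (filled) and in low-marker members (open). Ifi27l2a (722 CPM) and H2-K1 (1200 CPM) stand highest in KO MI, Il1rn (550 CPM) in Het MI, and Osm, Atf3, Jun, Egr1, Ccl3 and G0s2 in Het sham.

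Neutrophils of Het MI hearts, set against those of Het sham hearts, held more Il1rn and Acod1 and less Prok2, Osm and Atf3. Past 1.5-fold, 5.99% of 3823 genes were higher and 13.2% lower (8.1% and 11.2% of 2358 genes in low-marker members). Of the genes past the fold 31.2% were higher, and 47.5% under trimmed-mean (TMM) scaling, so the balance of directions rests on the scaling. Il1rn, at 550 CPM in Het MI and 207 in Het sham, gave a log2 ratio of 1.41 (1.11 to 1.72) and 1.27 in low-marker members. It had a UMI in 49.1% of the cells in Het MI and 39.7% in Het sham. Acod1, the enzyme that makes itaconate, stood at 407 CPM in KO MI, 427 in Het MI, 216 in KO sham and 218 in Het sham. Over all members both infarct libraries were near 1 level and both sham libraries near another. The log2 ratio was 0.97 (0.66 to 1.29) for Het MI over Het sham and 0.91 (0.61 to 1.22) for KO MI over KO sham. Low-marker members gave 1.01 and 0.55, the latter short of 1.5-fold.

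Prok2, a secreted peptide of neutrophils, ran the other way, at 148 CPM in KO MI, 90.1 in Het MI, 279 in KO sham and 305 in Het sham. Het MI over Het sham gave -1.76 (-2.25 to -1.30) and -2.03 in low-marker members, and KO MI over KO sham gave -0.92. Cells other than mature neutrophils held at most 7.38 CPM of it. Osm, oncostatin M, had 114, 184, 206 and 417 CPM, and Het MI over Het sham gave -1.18 (-1.53 to -0.84) and -1.01 in low-marker members. Atf3, a stress-induced transcription factor, had 514 CPM in KO MI, 385 in Het MI, 513 in KO sham and 975 in Het sham, with a log2 ratio of -1.34 (-1.58 to -1.11) and -1.73 in low-marker members for Het MI over Het sham. The remaining leading genes were Basp1 (log2 1.24, and 0.44 in low-marker members) and the triglyceride enzyme gene Dgat1 (1.07 and 1.08) on the higher side. On the lower side were the heat shock gene Hspa1a (-1.85, with 6 and 18 UMIs in low-marker members of Het MI and Het sham), Ankrd12 (-1.46 and -1.84), the phosphate transporter gene Slc20a1 (-1.27 and -1.40) and Gadd45g (-0.96 and -1.11). Of 16 cytokine and chemokine genes 4 were higher (Il1a, Il1rn, Tnfaip3 and Tnfaip2) and 1 lower (Osm), with a median of 0.24, and in low-marker members 3 of 15 were higher (Il1rn, Nfkbie and Tnfaip2) and 1 lower (Osm), with a median of 0.25. The all-member median was -0.09 when members were held to at least 8 UMIs of the maturity genes. Among 24 receptors 3 were higher (Fpr1, Cd14 and Csf2rb) and 1 lower (Fcgr4), with Cd14, the lipopolysaccharide co-receptor, at 901 CPM in Het MI and 589 in Het sham. In low-marker members 5 of 23 receptors were higher (Fpr1, Fpr2, Cd14, Clec4e and Csf2rb) and 0 lower.

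The comparison of infarct with sham in KO hearts, KO MI against KO sham, was led by the genes that set the KO MI library apart. Past 1.5-fold, 8.48% of 3869 genes were higher and 9.77% lower (5.59% and 13.3% of 2128 genes in low-marker members). Ifi27l2a gave a log2 ratio of 1.64 (1.37 to 1.92) and 1.36 in low-marker members, and H2-K1 1.17 (0.98 to 1.36) and 1.09. Ifitm3, which restricts viral entry, had 1310 CPM in KO MI, 583 in Het MI, 608 in KO sham and 713 in Het sham, a log2 ratio of 1.11, and of 0.44 in low-marker members. Of 18 measured type I interferon-induced genes 6 were higher (Ifitm3, Oasl2, Slfn4, Zbp1, Ifi27l2a and Ifi204) and 0 lower, with a median of 0.39. In low-marker members only Ifi27l2a of 13 was higher and the median was -0.03. Ly6c2 (2.62), Plac8 (1.44), C3 (1.07, and 0.23 in low-marker members), the actin-capping gene Capg (1.03 and 0.69) and Ctss (1.02) completed the higher side over all members. Low-marker members of KO MI and KO sham held 5 and 8 UMIs of Ctss, and 10 and 7 of Plac8. Cytokine and chemokine genes had 1 of 16 higher (Ptgs2) and 1 lower (Osm) over all members, with a median of 0.08, and 5 of 14 higher (Tnf, Ptgs2, Nfkbia, Nfkbiz and Tnfaip3) and 0 lower in low-marker members, with a median of 0.47. Of 10 interferon-gamma response genes 5 were higher and 0 lower, with a median of 0.67, against 0 of 3 in low-marker members, with a median of 0.13. G0s2 was the leading lower gene, with a log2 ratio of -0.87 and of -0.76 in low-marker members. Cxcr4, the receptor that retains neutrophils in the marrow, was lower, at 304 CPM in KO MI and 480 in KO sham (log2 -0.66, and -0.65 in low-marker members).

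Without infarction, KO sham against Het sham, neutrophils held less Ptgs2, Ccl3 and Osm in KO hearts. Past 1.5-fold, 5.21% of 4091 genes were higher and 11% lower (5.29% and 11.4% of 2513 genes in low-marker members); of those past the fold 32.2% were higher, and 50.5% under TMM scaling. Ptgs2 stood at 133 CPM in KO sham and 319 in Het sham, a log2 ratio of -1.26 (-1.64 to -0.90) and -1.10 in low-marker members. It had a UMI in 24.7% of the cells in KO MI, 49.7% in Het MI, 21.5% in KO sham and 39.2% in Het sham, and after thinning in 13.5%, 29.4%, 11.4% and 20.4%, against at most 2.51% of B cells. Both Het libraries were above both KO libraries. In all other cells Ptgs2 stood at 54.8 CPM in KO MI, 92.1 in Het MI, 53.9 in KO sham and 23.3 in Het sham, where Het sham was the lowest. Ccl3, a macrophage-attracting chemokine, had 297 CPM in KO MI, 554 in Het MI, 317 in KO sham and 738 in Het sham, and KO sham over Het sham gave -1.22 (-1.46 to -0.98) and -0.91 in low-marker members. By CPM both Het libraries were above both KO libraries, while by share of cells with a UMI Het sham was highest, at 48.0%, against 35.8% in KO MI, 35.2% in Het MI and 35.4% in KO sham. The chemerin-binding receptor gene Ccrl2 gave -1.07, and -1.09 in low-marker members, with 273 CPM in KO sham and 575 in Het sham. Cxcl2 had 2658 CPM in KO sham and 4480 in Het sham. In all, 4 of 15 cytokine and chemokine genes were lower (Osm, Cxcl2, Ccl3 and Ptgs2) and 0 higher, and 5 of 15 were lower in low-marker members (the same 4 and Nfkbiz). The higher genes Cd83 (1.34) and Nr4a2 (1.08) had 3 and 7, and 10 and 14, UMIs in low-marker members of KO sham and Het sham, and Apoe (0.93) is a macrophage marker.

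Immediate early genes, which switch on within minutes of a stimulus or of handling, were lower in the same direction in all 4 comparisons. Their list medians over 19 genes were -0.32 for KO MI over Het MI, -0.35 for Het MI over Het sham, -0.30 for KO MI over KO sham and -0.30 for KO sham over Het sham, and in low-marker members -0.22, -0.41, -0.31 and -0.36. The comparisons share libraries, so these medians are not independent of each other. In each, 0 genes were higher over all members, and 4, 5, 2 and 5 were lower, set against 11.2%, 13.2%, 9.77% and 11% of all genes. Jun had 83.5 CPM in KO MI, 186 in Het MI, 142 in KO sham and 291 in Het sham, and Egr1 had 171, 360, 297 and 531 CPM. Fos followed at 665, 838, 902 and 1371 CPM, and Junb at 1395, 1854, 2003 and 2703 CPM. For all 4 genes Het sham was the highest library and KO MI the lowest.

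The order differed in the remaining cells of the same libraries, where Jun had 430 CPM in KO MI, 539 in Het MI, 520 in KO sham and 471 in Het sham, and Egr1 had 474, 615, 450 and 245 CPM. Per cell, the median sum of the list was 127 per 10000 UMIs in KO MI, 161 in Het MI, 159 in KO sham and 179 in Het sham. Atf3 stood apart from its list in the infarct comparison, with a log2 ratio of 0.41 for KO MI over Het MI and of 0.80 in low-marker members.

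**Figure D4:**
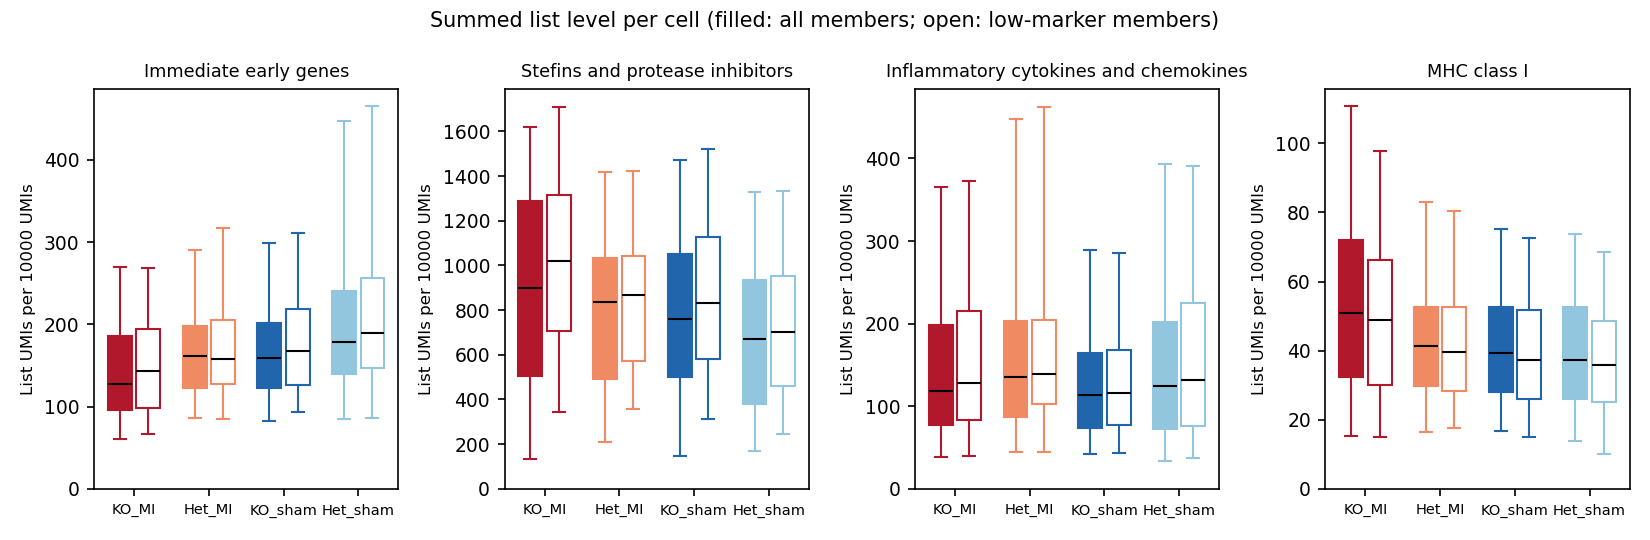
Summed level of 4 gene lists per cell (y axis, per 10000 UMIs) in each library, with boxes between the 25th and 75th percentiles, the median as a line and whiskers at the 5th and 95th percentiles, for all members (filled) and low-marker members (open). Immediate early genes have their highest median in Het sham (179) and their lowest in KO MI (127), while stefins run the other way, and the boxes of all libraries overlap.

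Stefins and related inhibitors differed little between libraries relative to their spread between cells. The per-cell median of the list was 898 per 10000 UMIs in KO MI, 835 in Het MI, 760 in KO sham and 670 in Het sham, and 1018, 869, 830 and 701 in low-marker members. List medians over 11 genes were 0.06, 0.26, 0.10 and 0.13 in the 4 comparisons, and past the fold 1, 0, 1 and 0 genes were higher, beside 11%, 5.99%, 8.48% and 5.21% of all genes, and 0 were lower. Stfa2 had 6311, 5350, 5362 and 4472 CPM in the 4 libraries. Calprotectin per cell, used by the rule, had medians of 1296, 1111, 1075 and 828 per 10000 UMIs in the same order.

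Of 3 measured azurophil granule genes Ctsc and Lyz2 were higher in KO MI than in Het MI and than in KO sham, with list medians of 1.01 and 0.66, and in low-marker members 0 of 2 were higher, with medians of 0.04 and 0.09. Of 12 gelatinase and tertiary granule genes Camp, Ngp and Chil3 were higher in both comparisons, and the medians were -0.03 and -0.12. Camp and Ngp belong to the rule. Mmp9, gelatinase B, had 905 CPM in KO MI, 1219 in Het MI, 986 in KO sham and 1005 in Het sham, and Pglyrp1, a peptidoglycan-binding protein, had 1097, 1150, 1234 and 1131 CPM. Of the 7 NADPH oxidase genes, which make superoxide, only Cybb passed the fold, being higher in KO MI than in Het MI (log2 0.79) and than in KO sham (0.69). In low-marker members it gave 0.03 and 0.56 and did not pass it. Mcl1, the survival factor on which neutrophils depend, had 1851 CPM in KO MI, 2373 in Het MI, 2347 in KO sham and 2397 in Het sham. Thbs1, thrombospondin, had 3655, 5099, 4979 and 4706 CPM, lowest in KO MI, with low-marker log2 ratios of -0.54 over Het MI and -0.64 over KO sham.

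Among glycolysis and hypoxia genes Ero1l, an oxidoreductase of the endoplasmic reticulum, had 26.7 CPM in KO MI, against 61.3 in Het MI, 58.5 in KO sham and 45.2 in Het sham, and Gapdh had 1483, 1250, 1367 and 1435 CPM. Among transcription factors Cebpb, the C/EBP member most abundant here, had 3040, 3491, 3372 and 3916 CPM. Ferritin heavy chain, Fth1, had 17599, 16386, 15437 and 17730 CPM. Of the genes linked to Siglec-F-high neutrophils of infarcts, Siglecf itself had a UMI in 3 cells of KO MI, 5 of Het MI, 4 of KO sham and 3 of Het sham, and the list median was -0.27, 0.17, -0.01 and -0.04 in the 4 comparisons. KO MI over KO sham had 0 of 11 past the fold over all members. In low-marker members it had 5 of 9 higher (Tnf, Icam1, Nfkbia, Dusp2 and Cd63), beside 5.59% of all genes, with a median of 0.60, and Tnf and Nfkbia are shared with the cytokine list. MHC class II genes were carried mostly by single cells, and 0 of them reached 30 UMIs over 2 libraries in low-marker members.

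**Figure D5:**
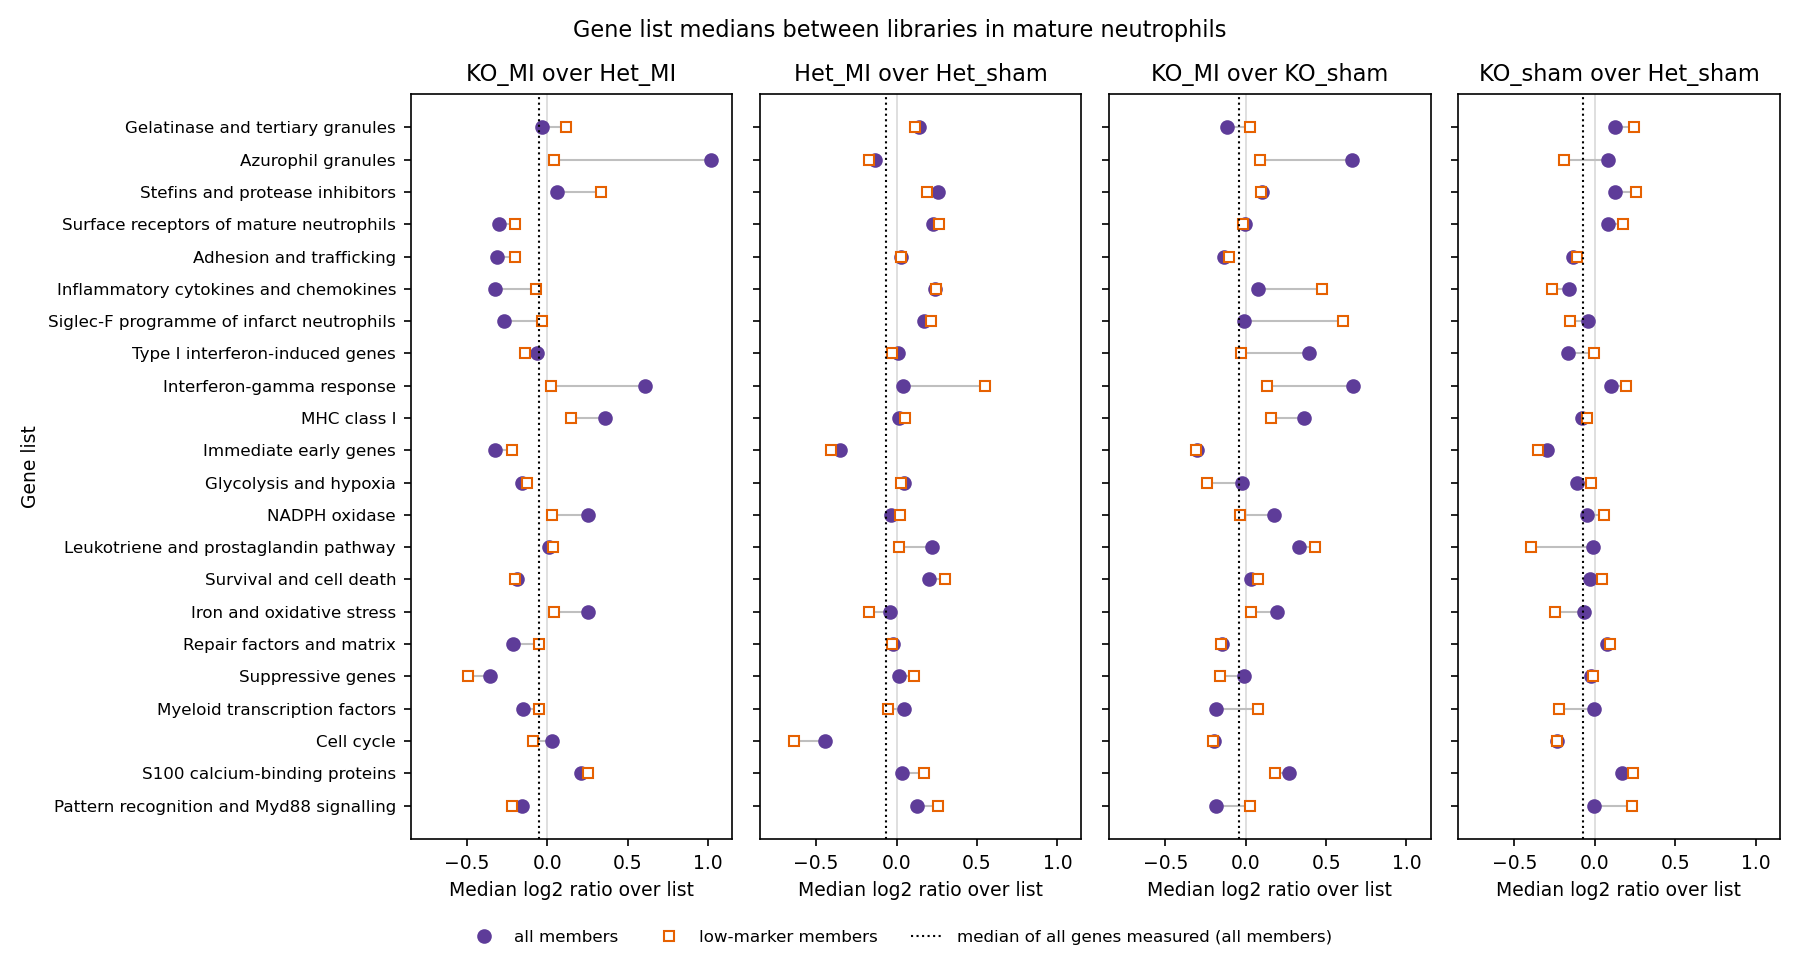
Median log2 ratio of each gene list (down the y axis) in the 4 comparisons (panels), over all members (circles) and in low-marker members (squares), with the median of all measured genes as a dotted line. Immediate early genes lie left of the dotted line in all 4 panels, and the interferon-gamma list lies right of it over all members where KO MI is set against Het MI (0.61) and KO sham (0.67), while its low-marker squares lie at 0.02 and 0.13.

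The genes of the PD1 axis were sparse in neutrophils. Pdcd1 had a UMI in 0 of 190 cells in KO MI, 0 of 165 in Het MI, 0 of 223 in KO sham and 0 of 204 in Het sham, which, taking 3 cells as the limit that a count of 0 allows, leaves room for shares of up to 1.58%, 1.82%, 1.35% and 1.47% of cells with a UMI. Cd274 (PD-L1) had a UMI in 14.2%, 10.3%, 7.62% and 8.82% of the cells, against 13.5%, 14.2%, 13.4% and 16.6% of B cells, below the B cell share in every library but KO MI, where it was close to it. These shares were not thinned to equal depth, and B cells were deeper, with median depths between 3432 and 4297 UMIs. Over all members Cd274 passed 1.5-fold as higher in KO MI than in Het MI and than in KO sham. In low-marker members it was not among the genes counted as higher. Pdcd1lg2 (PD-L2) had a UMI in 1, 1, 0 and 4 cells.

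The ratios of infarct to sham libraries were compared between genotypes as log2 KO MI over KO sham minus log2 Het MI over Het sham. This difference is untested with 1 library in each group, and the genes named are the extremes of 2479. Among the highest were Ly6c2 (2.57), by which low-marker members were chosen, Ggh (2.46) and Ifi27l2a (2.33). Low-marker members gave 2.01 for Ifi27l2a. The lowest were Pcif1 (-1.81), Pxk (-1.77), Gnaq (-1.76) and Hlx (-1.65). Hlx, a homeobox transcription factor, had 15 UMIs in KO MI, 52 in Het MI, 61 in KO sham and 68 in Het sham, and low-marker members gave -1.61.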

How the data were processed

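Single-cell libraries were made with 10x 3′ chemistry from CD45+ cells sorted from digested neonatal hearts after removal of the atria, red cell lysis and dead-cell staining, per the labels' protocols. The deposited values are raw UMI counts per gene and cell, made by the authors with Cell Ranger 4.0.0 per the file headers, while the submitters' processing notes name Cell Ranger 6.1.1 and Seurat 4. Cells were kept at 500 or more UMIs, 200 or more genes and at most 10% mitochondrial counts. Members were chosen by the stated rule, and their counts were summed per library and scaled to CPM. Log2 ratios carry exact conditional binomial 95% intervals, and levels carry Poisson intervals. PCR duplicates are removed by UMIs, so intervals cover counting error only. With 1 library per group there was no test, and the spread between animals is unknown. The 23 gene lists were described by medians and counts past 1.5-fold. Members and lists were chosen with earlier results of these data known.

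Named genes were, for each comparison, up to 8 (4 for KO sham over Het sham) on each side. They had 100 or more UMIs, an interval beyond 1.5-fold and under 25% of UMIs in 1 cell. For the difference of effects up to 4 on each side were named, with the same UMI minimum and no limit on the interval. In each list, the 5 most abundant members and the highest and lowest in KO MI over Het MI were also named. Other list members, named where they passed the fold, were chosen after their values were seen. A few genes that the rule names are not reported here. Low-marker members gave no ratio for genes left with few UMIs. Scrublet (scanpy 1.11.5) set its own threshold at 6, 1, 0 and 139 calls in KO MI, Het MI, KO sham and Het sham and was not relied on in the first 3. Removing the expected number of doublets instead took out 1, 2, 2 and 6 members. TMM factors came from edgeR 4.0.16, used for scaling alone. Free RNA was judged from B cells of the same libraries. These were chosen with low S100a8 and S100a9, so they can understate free neutrophil RNA. The ratio scripts were tested on simulated counts. Alternatives to the filters, scaling, rule limits and depth are given in the closing section.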

Additional observations from a re-analysis of the deposited data

Results flagged for a closer look

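For 6 of the named genes the ratio of infarct to sham passed 1.5-fold in opposite directions in the 2 genotypes. The ratios are log2 KO MI over KO sham and log2 Het MI over Het sham. In each case the difference was not tested because each group is 1 library. Ifi27l2a gave 1.64 in KO and -0.68 in Het, a difference of 2.33, and 1.36 and -0.65 in low-marker members. Ggh, gamma-glutamyl hydrolase, gave 0.85 and -1.61, a difference of 2.46, from 43 UMIs in KO MI and 8 in Het MI. Ctsc gave 0.93 and -0.97, a difference of 1.90, and low-marker members held 7 of its UMIs in KO MI and 17 in KO sham. Ms4a6c, a monocyte marker, gave 0.90 and -0.92, a difference of 1.83, with 1 and 2 UMIs left in low-marker members of KO MI and Het MI. Pycard gave 0.98 and -0.70, a difference of 1.68, and kept both signs in low-marker members. Pxk went the other way, with -0.63 in KO and 1.14 in Het, a difference of -1.77, and -0.98 and 0.97 in low-marker members.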

How the results depend on the processing

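No paired analysis was possible because each group is 1 library and no replicate numbers are shared. The number of genes past 1.5-fold moved most with the UMI minimum and the cells kept. For KO MI over Het MI it was 794, and 198 at 100 UMIs or more, 6142 with no minimum, 284 after thinning to 1000 UMIs, 429 without cells of 3 or more macrophage UMIs, 389 in low-marker members and 433 without cells above 6000 UMIs. For Het MI over Het sham it was 734, and 136, 6313, 302, 466 and 454 under the first 5 of these. For KO MI over KO sham it was 706, and 149, 5750, 316, 410, 401 and, without cells above 6000 UMIs, 450. For KO sham over Het sham it was 661, and 105, 5697, 291, 440 and 420. Fewer UMIs leave fewer genes measured, and the other part of these shifts was not tested. Low-marker members and the 6000 UMI limit were chosen after seeing the data. All 36 alternative share ratios moved by less than their counting interval, 968 list medians and 417 named gene ratios moved less than their own criterion and 11 and 82 moved more, and the ratios of the leading genes of each comparison kept their signs wherever 30 UMIs remained. Among abundant list members, Lyz2 for KO MI over Het MI gave 1.01, and -0.01 in low-marker members, Lgals3 0.73 and -0.03, Mmp9 -0.43 and 0.02, and Slpi -0.27 and 0.02. Ccl4 for Het MI over Het sham gave 0.26 and -0.21. Trimmed-mean scaling moved the median of all genes in Het MI over Het sham to 0.04, against -0.07, and in KO sham over Het sham to 0.03, against -0.08. Depth limits the results to genes with at least 30 UMIs over 2 libraries.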
